A study of Mus musculus with 8 samples.

Results

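The genes described here are the chaperones and proteases that fold and clear proteins inside mitochondria. They were taken by symbol as the count entries named *Hspd1*, *Hspe1*, *Hspa9*, *Trap1*, *Dnaja3*, *Grpel1*, *Lonp1*, *Clpp*, *Clpx* and *Htra2*, and these are 10 of the 47628 entries that name a gene. All 10 were abundant enough to be tested, among 19366 genes in all. Cochlear RNA was sequenced from 4 WT mice, labelled WT_4, WT_5, WT_6 and WT_8, and from 4 *Opa1*+/- mice, labelled Het_2, Het_7, Het_484 and Het_491. The *Opa1*+/- mice carried the delTTAG knock-in on 1 allele of *Opa1*, the gene of a GTPase that fuses the inner mitochondrial membrane and shapes its cristae, and the WT mice were littermates. All were untreated, on a mixed C57BL/6J and 129Sv/Pas background, and 21 days old, an age that comes from the methods and not from the labels. The mutation is in the germ line and so in every cell, and the tissue was the whole cochlea, with the nerve, bone and blood it holds. The comparison asks whether the transcripts of the mitochondrial quality control machinery differ in a cochlea with reduced *Opa1* before hearing is lost.

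Proteins that enter the mitochondrial matrix are folded by an Hsp70 type chaperone with its cochaperones and by a barrel-shaped chaperonin, and those that misfold are degraded by ATP-driven proteases. When misfolded proteins build up in the matrix, cells can raise the transcription of these genes, a programme called the mitochondrial unfolded protein response. The cochlea depends on mitochondria for the energy of ion transport and nerve firing, and recessive variants of the human *CLPP* gene cause deafness in Perrault syndrome.

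The sequence between the chaperonin pair is shown because it lies before a RefSeq start of each gene. *Hspd1*, the gene of the chaperonin, and *Hspe1*, the gene of its lid, lie head to head on chromosome 1, *Hspd1* on the minus strand at 55077835 to 55088243 and *Hspe1* on the plus strand at 55088132 to 55091307 (GRCm38). The 215 bases between a RefSeq start of *Hspd1*, which is read to the left, and the RefSeq start of *Hspe1*, which is read to the right, are given from the plus strand of GRCm38.p6 at chr1:55087933-55088147. Capitals mark TGCAAT, the letters of a site for CHOP and C/EBP factors, and the neighbouring pair of matches to TTCNNGAA, the core of a heat shock element.
Hspd1-Hspe1 shared region: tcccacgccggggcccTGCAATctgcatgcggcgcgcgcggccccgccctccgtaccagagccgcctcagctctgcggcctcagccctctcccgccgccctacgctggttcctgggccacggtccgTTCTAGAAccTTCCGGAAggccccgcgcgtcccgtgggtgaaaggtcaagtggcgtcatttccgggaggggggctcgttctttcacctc
GENCODE starts *Hspd1* further upstream, at 55088243, so that the printed stretch lies inside the GENCODE gene of *Hspd1*. The matches to TTCNNGAA begin 89 and 79 bases before the start of *Hspe1*, and the match to TGCAAT begins 199 bases before it. The heat shock core in its other phase, GAANNTTC, also matches once, 84 bases before the start, across the gap between the capitals, so it overlaps both of them.

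RefSeq windows of 250 bases before to 50 bases after a start were found for 8 of the 10 genes, all but *Hspa9* and *Htra2*, with 9 windows among them because *Hspd1* has more than 1 start. Each motif was searched on both strands. TTCNNGAA was in 3 of the 9 windows (*Hspd1*, *Hspe1* and *Clpp*, in *Clpp* 33 bases after the start) and in 8.52% of all 32851 windows. In *Hspd1* and *Hspe1* these are the same sites of the shared sequence, counted in both windows. The other *Hspd1* window, at 55088194 to 55088493, matched none of the motifs searched. GAANNTTC was in 2 of the 9 and in 7.86% of all, and TGCAAT was in 2 of the 9 and in 8.40% of all, in each case the shared sequence of *Hspd1* and *Hspe1*. The letters TGATGNAA, of an ATF4 type amino acid response element, and CCGGAAGT, of an ETS type site, matched in none of the 9 windows and in 3.97% and 3.89% of all. GCATGCGC, an NRF1 type site of genes for mitochondrial proteins, was in the windows of *Clpx* and *Grpel1* and in 2.71% of all. These stretches are shown because they carry that site in genes of a protease and of a chaperone cycle, at chr9:65294150-65294200 and chr5:36465125-36465175, both from the plus strand with the site in capitals.
Clpx upstream: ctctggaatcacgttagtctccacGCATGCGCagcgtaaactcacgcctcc
Grpel1 upstream: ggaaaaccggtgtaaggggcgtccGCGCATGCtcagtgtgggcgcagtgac
The site began 86 bases before the RefSeq start of *Clpx* and 36 bases before the RefSeq start of *Grpel1*, where it stood on the other strand. GENCODE starts *Grpel1* further upstream, at 36464998, so that the printed stretch lies inside the GENCODE gene. Letter matches describe these windows and do not show that a factor was bound there.

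Counts on named genes ranged from 15978051 to 20828030 per mouse, and the counts of the 10 genes in single mice from 196 (*Htra2*) to 5641 (*Hspa9*). *Opa1* was at 119, 126, 112 and 122 CPM (counts scaled to library size) in WT_4, WT_5, WT_6 and WT_8 and at 63.5, 68.4, 60.4 and 70.0 CPM in Het_2, Het_7, Het_484 and Het_491, a fall of 45.2% (edgeR quasi-likelihood test, Benjamini-Hochberg adjusted p = 0.00515). Every library therefore matched its label. Without Het_2 the log2 fold change of *Opa1* was -0.85, where it was -0.87 with all mice, and its edgeR adjusted p was 0.0704. Over all genes 0.0258% passed an adjusted p of 0.05 and 6.72% an unadjusted p of 0.05. Hair cell, spiral ganglion, Schwann cell and stria vascularis markers were detected in every mouse, as were markers of blood, marrow, muscle and bone. Erythroid markers summed to 7739 to 21425 CPM in WT mice (median 10512) and 15040 to 25032 CPM in *Opa1*+/- mice (median 16926), and muscle markers ran from 15.8 CPM in Het_491 to 2119 CPM in WT_6. In bulk RNA, fewer cells of a type and less RNA per cell cannot be told apart.

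None of the 10 genes passed the adjusted threshold, by edgeR, by DESeq2 or by limma voom with quality weights. An unadjusted p under 0.05 was reached by 1 of the 10 with edgeR (*Lonp1*), by none with DESeq2, which gave 5.61% of all genes, and by 2 with limma voom (*Lonp1* and *Clpp*), which gave 10.3%. With single mice left out the edgeR count ran from 0 to 2, with *Trap1* alone without WT_5, *Hspe1* alone without Het_7, *Lonp1* and *Clpp* without WT_6, *Lonp1* alone without Het_491 and none otherwise, while the share of all genes at that level in these fits ran from 3.71% (without WT_8) to 10.4% (without WT_4). Read against the 6.72% of all genes, 1 of 10 is near the background. In 9 of the 10 the log2 fold change, always *Opa1*+/- minus WT, was above 0, where 50.1% of all genes were. The median was 0.097 where that of all genes was 3.95e-04. Without regard to sign, the median log2 fold change was 0.097 in the 10 and 0.099 in all genes. The values of the groups overlapped in all 10 genes, while 4.31% of all genes showed no overlap. The erythroid marker sums given above also had a higher median in *Opa1*+/- mice. Of 6 Schwann cell markers 6 had positive log2 fold changes, with a median of 0.20 and none at an unadjusted p under 0.05 by edgeR, and they summed to 3128 to 4296 CPM in WT and 3765 to 5136 CPM in *Opa1*+/- mice. The part of either in the members' values was not tested.

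The chaperonin of the matrix, known as Hsp60, is the product of *Hspd1*. Its transcript was at 159, 163, 143 and 147 CPM in WT_4, WT_5, WT_6 and WT_8 and at 163, 153, 155 and 169 CPM in Het_2, Het_7, Het_484 and Het_491. The highest mouse was Het_491 and the lowest WT_6, with the other 6 mice intermixed. The means were 153 ± 9.50 and 160 ± 7.33 CPM (SD, n = 4 each), a log2 fold change of 0.06 with a standard error (SE) of 0.07 (edgeR adjusted p = 0.868). The 95% interval of the change ran from -5.55% to 15.8%, and the log2 fold change was 0.03 without WT_6 or Het_491, 0.04 without WT_8 and 0.10 without WT_5. Part of these reads may be shared with a processed copy of the gene, *Hspd1-ps3*, which was 99.0% identical to *Hspd1* over 1722 bases. Its own counts were 20.7% to 25.4% of those of *Hspd1*. With both entries summed, the levels were 188 ± 14.0 and 198 ± 9.75 CPM (exact two-sided permutation p = 0.286, SD over 4 mice each), so the addition left the groups overlapping.

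*Hspe1* encodes the small cochaperonin that closes the chaperonin barrel. In the same order of mice it was at 42.9, 41.7, 39.8 and 38.8 CPM in the WT mice and at 41.9, 38.7, 46.1 and 53.5 CPM in the *Opa1*+/- mice. The upper end was set by Het_491 and Het_484, while Het_2 and Het_7 lay within or just below the WT range. Means were 40.8 ± 1.85 and 45.1 ± 6.43 CPM (SD, n = 4 each), a log2 fold change of 0.14 with an SE of 0.10 (edgeR adjusted p = 0.790). That log2 fold change was 0.21 without Het_7, 0.05 without Het_491 and -0.02 without both Het_484 and Het_491. The interval of the change reached up to 28.0%, the highest upper limit among the 10 genes. Of the exon bases of *Hspe1*, 7.6% overlap those of *Hspd1* on the other strand. It is not stated whether strand was used in counting.

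*Hspa9*, the mitochondrial Hsp70 that pulls proteins into the matrix and folds them, had the most counts of the 10. WT_4, WT_5, WT_6 and WT_8 had 249, 275, 241 and 245 CPM and Het_2, Het_7, Het_484 and Het_491 had 270, 270, 250 and 261 CPM. WT_5 was the highest of all 8, above every *Opa1*+/- mouse. The change was 4.07% with an interval from -5.74% to 14.9%, a log2 fold change of 0.06 (edgeR adjusted p = 0.883) that was 0.04 without WT_6 and 0.10 without WT_5.

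*Dnaja3*, on chromosome 16 at 4639989 to 4707695, encodes a J-domain partner that hands substrates to the mitochondrial Hsp70. It was at 32.0, 39.2, 37.5 and 36.6 CPM in the WT mice and at 39.7, 40.2, 37.5 and 37.3 CPM in the *Opa1*+/- mice. The WT mean was lowered by WT_4, and without that mouse the log2 fold change went from 0.09 to 0.04 (edgeR adjusted p with all mice 0.818). Exons of *Vasn* on the same strand cover 4.09% of the exon bases of *Dnaja3*, and those of *Coro7* on the other strand 3.91%. *Grpel1*, on chromosome 5 at 36464998 to 36474080, encodes the nucleotide exchange factor that resets the same chaperone. Its values were 38.6, 42.4, 30.5 and 33.3 CPM in the WT mice and 40.1, 36.3, 39.9 and 39.2 CPM in the *Opa1*+/- mice. *Grpel1* had the widest WT spread of the 10, with a coefficient of variation of 14.7% against 4.48% in *Opa1*+/- mice, and its log2 fold change was 0.10 with an SE of 0.10 (edgeR adjusted p = 0.859). That value was 0.03 without WT_6, 0.06 without WT_8 and 0.19 without WT_5. Of its exon bases, 11.6% overlap those of *Tada2b* on the other strand, and it is not stated whether strand was used in counting.

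*Trap1*, on chromosome 16 at 4039971 to 4077827, encodes the mitochondrial member of the Hsp90 family. WT mice had 67.0, 72.7, 61.7 and 60.0 CPM and *Opa1*+/- mice 69.4, 72.9, 72.7 and 69.2 CPM. The 4 *Opa1*+/- mice lay close together, with a coefficient of variation of 2.80% against 8.76% in WT, and WT_5 fell among them. The means of 65.4 ± 5.73 and 71.1 ± 1.99 CPM (SD, n = 4 each) gave a log2 fold change of 0.12 with an SE of 0.07 (edgeR adjusted p = 0.766), which was 0.08 without WT_8 and 0.18 without WT_5.

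**Figure D1:**
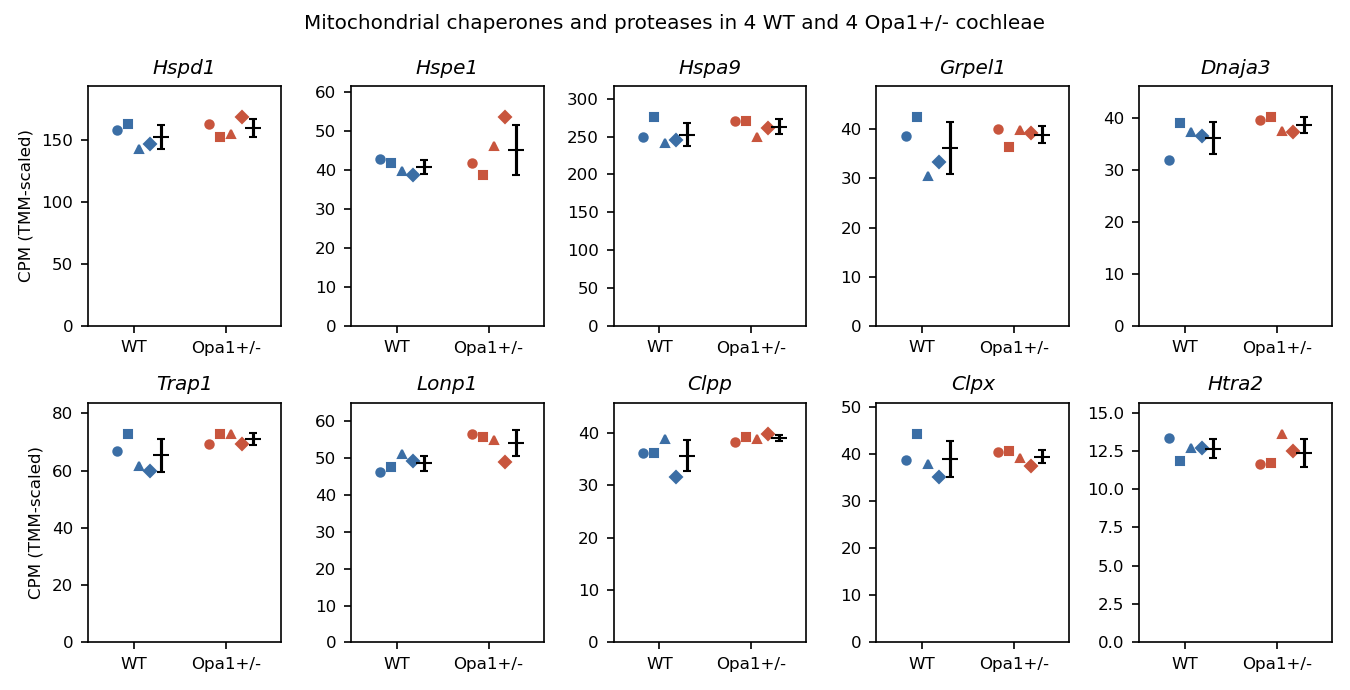
Level of each of the 10 genes in CPM (vertical axes, linear) for WT and *Opa1*+/- mice, 1 point per mouse, with the mean and SD of each group. In every panel at least 1 mouse of a group lies within the range of the other group.

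Of the proteases, *Lonp1* had the largest log2 fold change of the 10. The gene, on chromosome 17 at 56614297 to 56626887, encodes the ATP-driven Lon protease, which clears oxidised and misfolded matrix proteins and also binds mitochondrial DNA. WT_4, WT_5, WT_6 and WT_8 had 46.3, 47.7, 51.2 and 49.4 CPM, and Het_2, Het_7, Het_484 and Het_491 had 56.6, 55.8, 55.0 and 49.1 CPM. Het_2, Het_7 and Het_484 were above every WT mouse, and Het_491 was below WT_6 and WT_8. The means of 48.6 ± 2.11 and 54.1 ± 3.44 CPM (SD, n = 4 each) differed by 11.3% (interval 1.07% to 22.6%). This was a log2 fold change of 0.15 with an SE of 0.06 and an unadjusted p of 0.0330 by edgeR, which did not hold after adjustment over all genes (adjusted p = 0.722). The unadjusted p moved above 0.05 without WT_4, WT_5, WT_8, Het_2, Het_7 or Het_484 (0.0582 to 0.0865 by edgeR). It was 0.136 with total-count scaling, 0.0580 without a filter on low counts and 0.0584 with DESeq2.

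*Clpp*, on chromosome 17 at 56990305 to 56996188, encodes the proteolytic barrel of the ClpXP protease. It was at 36.1, 36.2, 38.8 and 31.5 CPM in the WT mice and at 38.3, 39.2, 38.9 and 39.8 CPM in the *Opa1*+/- mice. A single WT value, that of WT_6, reached into the *Opa1*+/- range, and WT_8 was the lowest. The coefficient of variation was 8.51% in WT and 1.67% in *Opa1*+/- mice. The log2 fold change was 0.13 with an SE of 0.07 (edgeR adjusted p = 0.758, unadjusted p = 0.0813, exact two-sided permutation p = 0.0571 on CPM), and it was 0.07 without WT_8 and 0.17 without WT_6.

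*Clpx*, on chromosome 9 at 65294260 to 65330658, encodes the unfoldase that feeds substrates into that barrel. It showed the smallest difference, with 38.8, 44.4, 38.1 and 35.3 CPM in WT and 40.5, 40.8, 39.2 and 37.6 CPM in *Opa1*+/- mice. The extremes were both WT, WT_5 at the top and WT_8 at the bottom. The log2 fold change of 0.02 with an SE of 0.07 (edgeR adjusted p = 0.975) took a negative sign without WT_8 or Het_7 and with libraries scaled by total counts. The interval reached from -9.89% to 13.4%.

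*Htra2*, on chromosome 6 at 83051266 to 83055273, encodes a serine protease of the intermembrane space, outside the matrix, and was the one gene with a negative value. It was at 13.4, 11.9, 12.7 and 12.7 CPM in the WT mice and at 11.6, 11.7, 13.6 and 12.5 CPM in the *Opa1*+/- mice. Het_484 was the highest of all and Het_2 and Het_7 the lowest, so the *Opa1*+/- group spanned the whole WT range. The log2 fold change was -0.03 with an SE of 0.09 (edgeR adjusted p = 0.955), and the interval ran from -14.5% to 11.8%. With single mice left out the value ran from -0.08 (without Het_484) to -0.0028 (without Het_2), and it was -0.06 without WT_5, -0.0047 without WT_4 and -0.0055 without Het_7. Exons of *Aup1* and *Loxl3* on the other strand cover 25.6% and 18.2% of the exon bases of *Htra2*, so its counts are uncertain.

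**Figure D2:**
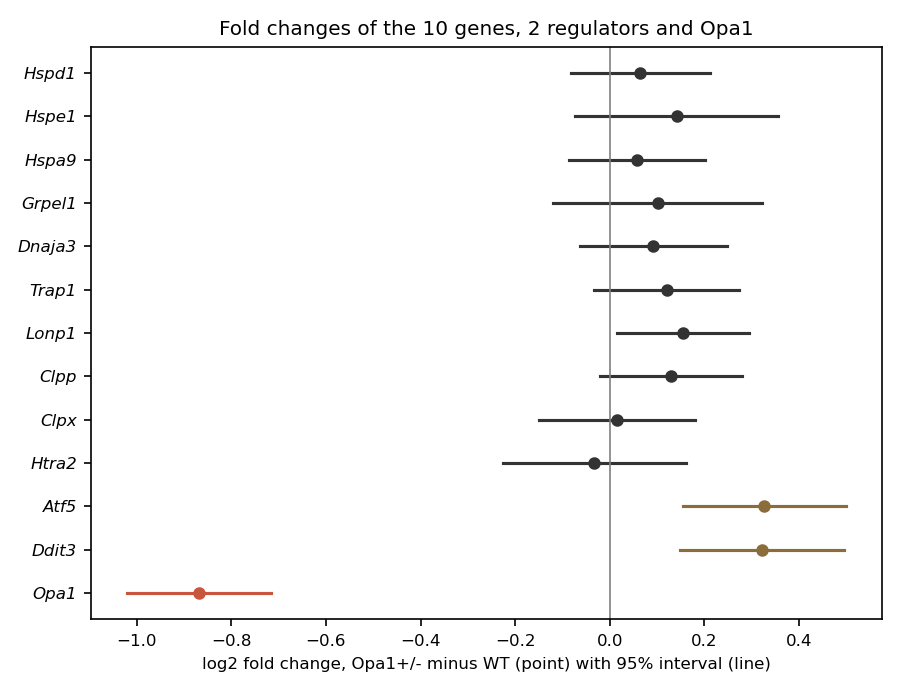
Log2 fold change, *Opa1*+/- minus WT (horizontal axis), of the 10 genes (black), the regulators *Atf5* and *Ddit3* (brown) and *Opa1* (red), as points with lines for the 95% interval from the edgeR fit over all genes. Among the 10 the interval of *Lonp1* alone lies above 0, and the highest upper limit, at 0.36, is that of *Hspe1*.

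The spread between mice was next described over the 10 genes. Their SEs ran from 0.06 to 0.10 on the log2 scale, where the median SE of all genes was 0.12. The median coefficient of variation over the 10 was 7.35% in WT and 4.16% in *Opa1*+/- mice, beside 11.5% and 10.5% over all genes, although *Grpel1* in WT (14.7%) and *Hspe1* in *Opa1*+/- mice (14.3%) were above those medians. Averaged over the 10 genes and centred on each gene's mean, the log2 level was -0.03, 0.04, -0.07 and -0.11 in WT_4, WT_5, WT_6 and WT_8 and 0.05, 0.02, 0.05 and 0.05 in Het_2, Het_7, Het_484 and Het_491. WT_8, with 1 of 10 genes above its own mean, stood lowest, and WT_5 lay within the *Opa1*+/- range. Leaving out WT_8 brought the median log2 fold change of the 10 from 0.097 to 0.06, and leaving out WT_5 brought it to 0.13.

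Partners of a complex were next compared within each library, where a ratio of counts does not depend on library scaling. Exons of *Hspd1* and *Hspe1* overlap by 112 bases on opposite strands, so their counts may be affected if strand was not used. *Hspd1* had 3.15 to 3.94 times the counts of *Hspe1* in single mice. The mean log2 ratio differed between genotypes by -0.07 (exact two-sided permutation p = 0.457). That difference was -0.0070 without Het_491 and turned to 0.067 without both Het_484 and Het_491. The *Clpp* to *Clpx* ratio lay between 0.815 and 1.06, with a difference of 0.11 on the log2 scale (exact permutation p = 0.229). For *Grpel1* and *Dnaja3* against *Hspa9* the log2 differences were 0.05 and 0.04 (exact permutation p = 0.600 and 0.686). The sign turned for *Grpel1* without WT_6 (-0.0028) or without both Het_484 and Het_491 (-0.011), and for *Dnaja3* without WT_4 (-0.016). The groups overlapped in each of the 4 ratios, and all 4 Benjamini-Hochberg adjusted p-values of these exact tests were 0.686.

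**Figure D3:**
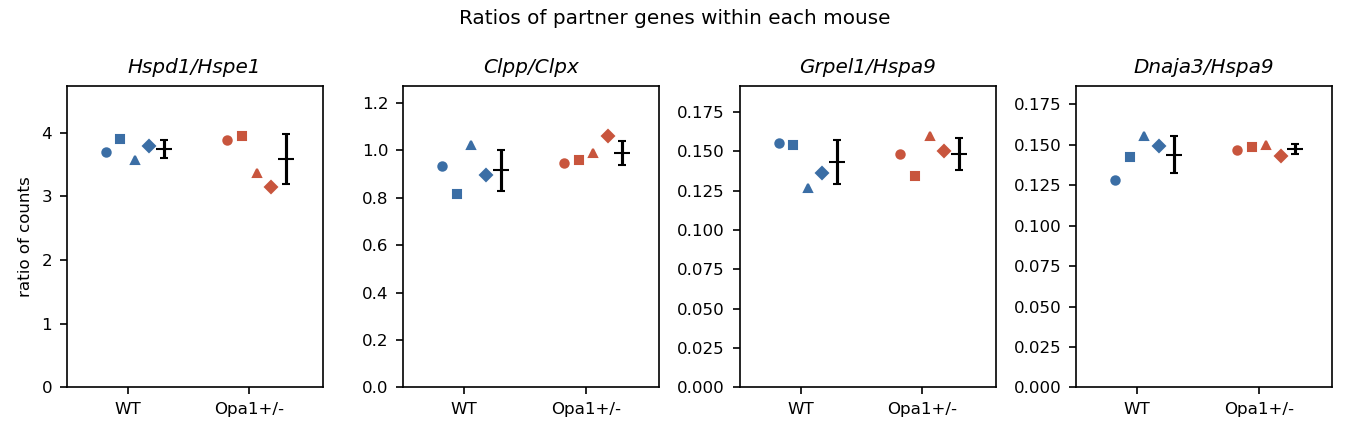
Ratio of the counts of 4 partner pairs in each mouse (vertical axes, linear), WT and *Opa1*+/-, 1 point per mouse with the mean and SD of each group. WT and *Opa1*+/- mice overlap in every pair, with *Clpp* to *Clpx* between 0.815 and 1.06.

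Over the 8 mice, log2 CPM of *Hspd1* and *Hspe1* had a Pearson r of 0.69 (exact permutation p = 0.0523) and a Spearman rho of 0.69 (exact permutation p = 0.0694). For *Grpel1* and *Hspa9* the r was 0.70 (exact permutation p = 0.0542) and the rho 0.83 (exact permutation p = 0.0154). For *Dnaja3* and *Hspa9* they were 0.61 (exact permutation p = 0.0743) and 0.69 (exact permutation p = 0.0694), and for *Clpp* and *Clpx* 0.37 (exact permutation p = 0.348) and 0.12 (exact permutation p = 0.793). Of these 4 pairs none passed after Benjamini-Hochberg adjustment, where the lowest adjusted value of the exact permutation tests was 0.0615, for the rho of *Grpel1* and *Hspa9*. Without the 2 mice farthest from the median of the first gene, r went to 0.45 for the chaperonin pair, 0.21 for *Grpel1* and *Hspa9*, 0.83 for *Dnaja3* and *Hspa9*, and -0.90 for *Clpp* and *Clpx*, a change of sign. The exact permutation p of these values, in the same order, was 0.389, 0.683, 0.0528 and 0.0292, without adjustment over the 4. Leaving out the mice farthest from the median narrows the range of the first gene, which by itself can lower r. With single mice left out, r ran from 0.51 to 0.76 for the chaperonin pair and from 0.55 to 0.80 for *Grpel1* and *Hspa9*. With total-count scaling r was 0.05 for *Clpp* and *Clpx* and 0.50 for *Hspd1* and *Hspe1*. Within the genotypes, on 4 mice each, r was 0.80 in WT and 0.73 in *Opa1*+/- mice for *Hspd1* and *Hspe1* and 0.43 and 0.84 for *Dnaja3* and *Hspa9*. For *Grpel1* and *Hspa9* it was 0.87 in WT and -0.44 in *Opa1*+/- mice, and for *Clpp* and *Clpx* 0.48 and -0.73, so these pairs did not hold one sign within genotypes.

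The genes whose log2 CPM followed that of *Hspd1* most closely over the 8 mice were *Carhsp1* (r = 0.98), *Gm13771* (0.97), *Cisd1* (0.96), *Xrcc6* (0.96) and *Mrpl16* (0.95). Its lid gene *Hspe1* was at rank 1184 of the 19365 other genes tested. For *Clpp* the closest were *Yif1b* (r = 0.97), *Pecr* (0.96), *Igsf8* (0.96), *Letm1* (0.95) and *Il1rn* (0.94), and *Clpx* was at rank 4094. Over 8 mice and this many genes, the names are a description, with no test.

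Per length, the members differed far more among themselves than between genotypes. In CPM per kilobase of exon, means over the 8 mice were 59.8 for *Hspa9*, 59.1 for *Hspd1*, 30.5 for *Clpp*, 29.1 for *Hspe1* and 26.5 for *Trap1*. The lower part of the order was *Lonp1* at 11.7, *Clpx* at 11.3, *Grpel1* at 10.6, *Dnaja3* at 9.58 and *Htra2* at 4.24 CPM per kilobase. The highest level was 14.1 times the lowest. Neighbours in this order were apart in both genotypes at 3 steps, below *Hspd1*, below *Trap1* and below *Dnaja3*, and *Grpel1* and *Dnaja3* were apart in *Opa1*+/- mice but not in WT. The other neighbours did not differ beyond their spread. *Hspa9* and *Hspd1* stood above 95.8% and 95.7% of all genes tested and *Htra2* above 49.6%. The order depends on the length used, since per kilobase of coding sequence *Hspe1*, with its short reading frame, was first and *Lonp1* moved down to the ninth place.

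**Figure D4:**
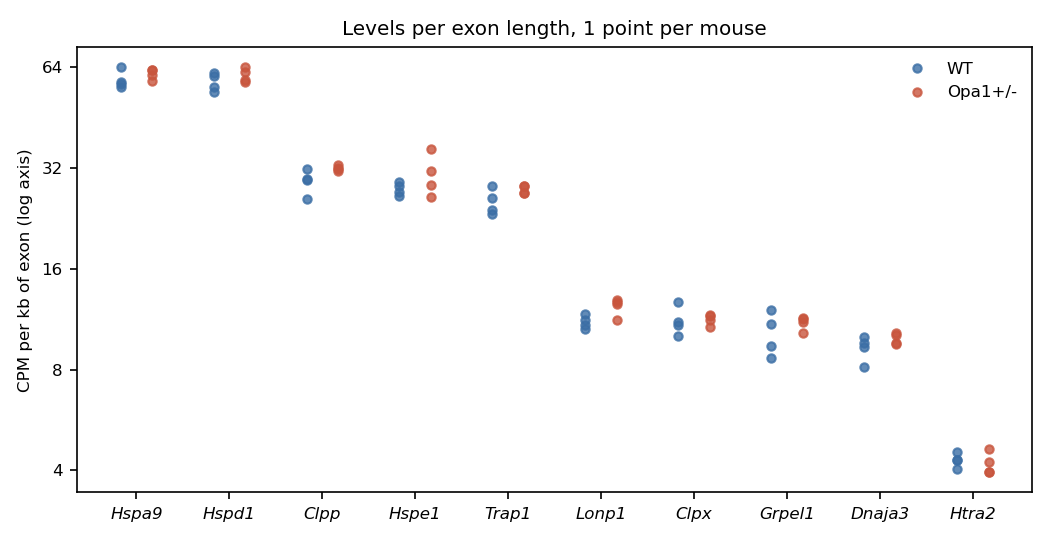
Level of the 10 genes in CPM per kilobase of exon (logarithmic axis), 1 point per mouse, WT and *Opa1*+/-. The order runs from *Hspa9* and *Hspd1* near 60 to *Htra2* near 4, and points of the genotypes overlap in each gene.

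Other genes of mitochondrial protein quality control gave the following counts, none with an adjusted p under 0.05 by edgeR. Among 12 other mitochondrial chaperones and cochaperones, 10 log2 fold changes were positive, with a median of 0.10, where 50.1% of all genes were positive, and 2 had an unadjusted p under 0.05, where 3.51% of all genes did in that direction. These were *Dnlz*, the zinc finger protein that keeps the mitochondrial Hsp70 soluble (0.15, SE 0.07, unadjusted p = 0.0482 by edgeR), and *Phb2*, a subunit of the prohibitin ring of the inner membrane (0.17, SE 0.07, unadjusted p = 0.0482 by edgeR). Both overlapped between genotypes, and with DESeq2 the unadjusted p was 0.101 for *Dnlz* and 0.0694 for *Phb2*. Without WT_8 the log2 fold change of *Phb2* was 0.11. *Phb*, the other prohibitin subunit and the one with the highest level per length in this list, was at 75.3 ± 5.98 and 78.4 ± 3.51 CPM (SD, n = 4 each).

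The proteases of the inner membrane, some of which cleave the OPA1 protein, formed a list of 7. Of these 3 were positive, with a median log2 fold change of -0.03 and none at an unadjusted p under 0.05. *Spg7*, a subunit of the m-AAA protease and the highest of them per length, was at 43.0 ± 1.23 and 42.0 ± 1.46 CPM (SD, n = 4 each). Of 8 processing and oligopeptide peptidases 2 were positive, with a median of -0.05 and again none at that level. *Immp1l*, a subunit of the inner membrane peptidase, was the highest per length there, at 12.7 ± 1.14 and 12.3 ± 1.93 CPM (SD, n = 4 each).

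Among 10 regulators of the mitochondrial unfolded protein response, 8 were positive, with a median log2 fold change of 0.08, and 2 had an unadjusted p under 0.05, where 3.51% of all genes did in that direction. *Atf5*, a transcription factor that induces matrix chaperones under stress, was at 36.4, 45.8, 39.0 and 38.8 CPM in the WT mice and at 48.8, 53.6, 47.8 and 50.4 CPM in the *Opa1*+/- mice. All 4 *Opa1*+/- mice were above all 4 WT mice, as in 1.98% of all genes, by a log2 fold change of 0.33 with an SE of 0.08 (edgeR unadjusted p = 0.00190, adjusted p = 0.722). *Ddit3*, the gene of CHOP, was at 30.1, 26.1, 28.0 and 27.6 CPM in the WT mice and at 33.9, 34.7, 39.2 and 31.7 CPM in the *Opa1*+/- mice. Its groups were apart as well, by a log2 fold change of 0.32 with an SE of 0.08 (edgeR unadjusted p = 0.00209, adjusted p = 0.722). The exact two-sided permutation p of each was 0.0286, the smallest that 4 against 4 mice can give. *Atf4*, a further factor of this response and the highest of the list per length, was at 142 ± 2.73 and 149 ± 8.32 CPM (SD, n = 4 each, edgeR adjusted p = 0.831). *Hspd1* and *Hspe1*, whose shared sequence holds the letters of a CHOP type site, had the log2 fold changes of 0.06 and 0.14 given above. Those letters are in 8.4% of all windows, and whether CHOP acts on these genes was not tested.

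**Figure D5:**
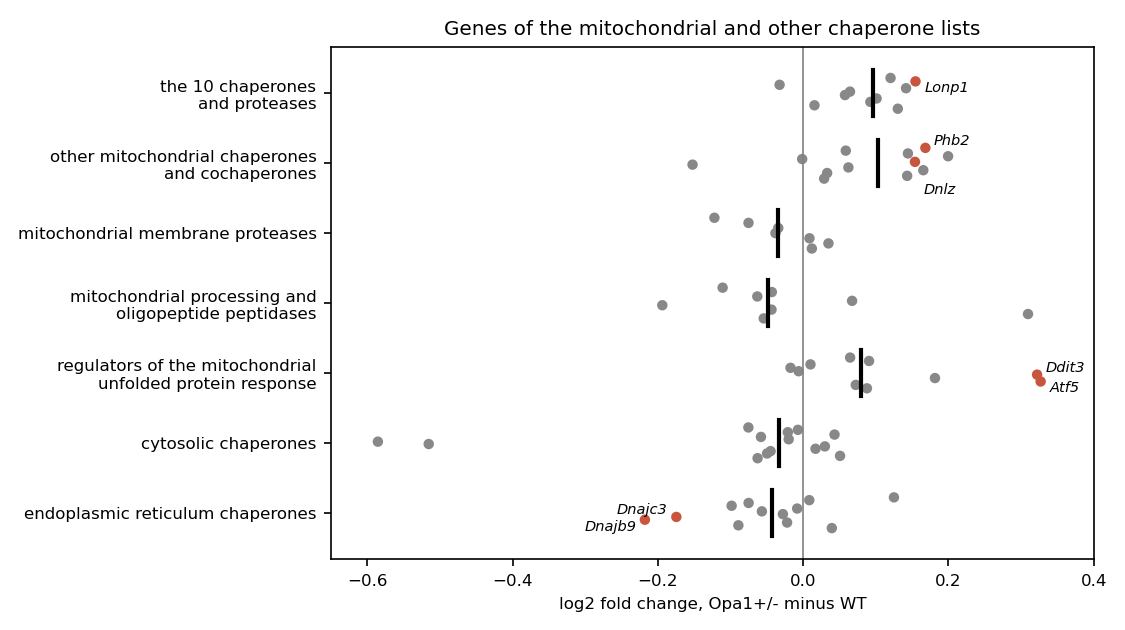
Log2 fold change, *Opa1*+/- minus WT (horizontal axis), of each gene in the list of the 10 genes and in 6 related lists, with a bar at the median and red points for an unadjusted edgeR p under 0.05. Medians are positive in the top lists of mitochondrial chaperones and in the regulators, and *Atf5* and *Ddit3* lie at 0.33 and 0.32.

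The chaperones of other compartments had medians on the other side of 0. Of 14 cytosolic chaperones 4 were positive, with a median of -0.03 and none at an unadjusted p under 0.05. *Hspa8*, the constitutive cytosolic Hsp70 and the highest per length, was at 2603 ± 179 and 2501 ± 165 CPM (SD, n = 4 each). Of 12 chaperones of the endoplasmic reticulum 3 were positive, with a median of -0.04, and 2 had an unadjusted p under 0.05, where 3.22% of all genes did in the negative direction. *Dnajc3*, a cochaperone of the reticulum's Hsp70, was at 160 ± 5.54 CPM in the WT mice and 142 ± 6.09 CPM in the *Opa1*+/- mice (SD, n = 4 each, edgeR unadjusted p = 0.0133, adjusted p = 0.722), with the groups apart, as in 2.33% of all genes in that direction. The groups of *Canx* were apart as well (edgeR unadjusted p = 0.110), a gene named after its values were seen. *Dnajb9*, another J-domain cochaperone there, was at 36.7 ± 4.12 and 31.5 ± 1.47 CPM (SD, n = 4 each, edgeR unadjusted p = 0.0273, adjusted p = 0.722), with overlap. *Hsp90b1*, the most abundant of this list per length, was at 734 ± 35.3 and 720 ± 65.2 CPM (SD, n = 4 each). Whether the medians of these lists differ from that of the 10 genes was not tested.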

How the data were processed

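Cochlear RNA of 4 WT and 4 *Opa1*+/- mice was made into CORALL libraries (Lexogen), which carry unique molecular identifiers, and sequenced as paired reads. Per the labels and methods, the authors checked reads with FastQC and mapped them to GRCm38/mm10 with STAR, and the methods name Lexogen's CORALL pipeline for the raw data. The authors deposited a table of raw counts per gene symbol for each mouse. The pipeline's counting step, annotation and use of strand are not given in the sources used here, so overlapping genes and near-identical copies are uncertain. No 2 libraries agreed within sampling noise. Groups came from the labels, which give no batch, and the mice were separate animals. The labels name TRI Reagent or an RNeasy kit for RNA without saying which mouse had which, and give no sex, so neither could be compared between genotypes.

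Named entries were used, and 15 entries with a number for a name, 0.112% to 0.124% of counts, were left out. Genes with a DESeq2 base mean over 10 were tested with edgeR 4.0.16 (TMM, quasi-likelihood, Benjamini-Hochberg adjustment over 19366 genes, adjusted p of 0.05) in R 4.3.3. The study used DESeq2, which here was an alternative (1.42.0, adjusted over all genes with counts before the base mean filter), as was limma voom (3.58.1). CPM used the TMM-scaled library sizes, and log2 CPM a prior count of 2. Intervals are at 95%. Exact two-sided permutation tests used all 70 arrangements of the 8 mice, and correlations over the 8 mice all 40320 pairings. Correlations with mice left out used all pairings of the mice that remained. Lengths and positions came from GENCODE vM21, sequences from RefSeq on GRCm38.p6, and identity of copies from blastn 2.17.0. The tests were tried on simulated data. Alternatives were other scalings, tests and filters, each mouse left out, and both Het_484 and Het_491 left out.

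The 10 genes and all lists were chosen with earlier results of these data known. Named genes are the 10, *Opa1* as a check, and in each list those with an unadjusted p under 0.05 (at most 4) and the one with the highest level per length, and for *Hspd1* and *Clpp* the 5 genes with the highest r. The marker lists covered hair cells, spiral ganglion neurons, Schwann cells, stria vascularis, erythroid cells, neutrophils and marrow, skeletal muscle and bone.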

Additional observations from a re-analysis of the deposited data

Results flagged for a closer look

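In 5 of 84 groups of 4 mice examined, 1 mouse stood apart from the other 3 by more than Dixon's 95% critical value, and chance gives about 1 in 20 such groups. None of the 10 genes had such a mouse. *Phb2* was at 57.7 CPM in Het_491, above the other *Opa1*+/- mice. *Dnajc3* was at 151 CPM in Het_484, the highest of its group and nearest to the WT range. The summed level of the endoplasmic reticulum chaperones was 2933 CPM in WT_5, below the other WT mice. The neutrophil and marrow markers summed to 1375 CPM in WT_4, and the skeletal muscle markers to 2119 CPM in WT_6, each above the other WT mice.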

How the results depend on the processing

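No member passed the adjusted threshold under any alternative run. All genes called numbered 5, and 23 with DESeq2 (adjusted over all genes with counts, and also 23 over the tested genes alone), 10 with limma voom, 10 with robust estimation, 12 without a filter, 11 at an adjusted p under 0.1, 0 without both Het_484 and Het_491, and 0 to 9 with single mice left out (0 without Het_2, 9 without WT_4). The members' median kept its sign throughout, from 0.06 to 0.13 with single mice left out. *Clpx* had -0.00875 with total counts and -0.035 to 0.083 with single mice left out. Without both Het_484 and Het_491, *Hspe1* had -0.019, the *Hspd1* to *Hspe1* log2 ratio 0.067 and the *Grpel1* to *Hspa9* log2 ratio -0.011, and *Opa1* had -0.86 with an adjusted p of 0.260 by edgeR. With single mice left out, the log2 ratio differences ran from -0.12 to -0.0070 for *Hspd1* to *Hspe1*, 0.06 to 0.17 for *Clpp* to *Clpx*, -0.0028 to 0.10 for *Grpel1* to *Hspa9* and -0.016 to 0.075 for *Dnaja3* to *Hspa9*, and the r of *Clpp* and *Clpx* from -0.56 to 0.72. The highest level per length was 16.1 times the lowest by coding length. *Atf5* and *Ddit3* were positive throughout, with lowest adjusted p-values of 0.216 and 0.381 by edgeR. The causes of these changes were not tested. Adding the *Hspd1-ps3* counts and adjusting DESeq2 over the tested genes alone were chosen after the data were seen. No paired analysis was possible because the groups share no animal numbers.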

Other observations

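No gene of the 8 marker lists had an unadjusted p under 0.05 by edgeR. The median log2 fold change, *Opa1*+/- minus WT, was 0.57 for 7 erythroid markers and 0.20 for 6 Schwann cell markers. It was -0.04 for 8 hair cell markers, -0.0041 for 8 spiral ganglion neuron markers and -0.13 for 7 stria vascularis markers. For 8 markers each of neutrophils and marrow, skeletal muscle and bone it was -0.0097, -0.71 and -0.05. The RNA of genes on the mitochondrial genome was 11.7% to 16.1% of the counts of a mouse.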
